A study of Mus musculus with 2 samples.

Results

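The G1 cyclins, their kinases and the inhibitors of those kinases were followed in RNA of mouse islets, where the pancreas makes insulin, glucagon and other hormones. The 10 genes were taken by name from a table of 54532 genes: the D-type cyclins Ccnd1, Ccnd2 and Ccnd3, the E-type cyclin Ccne1, the kinases Cdk4 and Cdk6, and the inhibitors Cdkn1a, Cdkn1b, Cdkn2a and Cdkn2c. All 10 were among the 17709 genes that had 10 or more reads in the 2 libraries combined. Islets came from male C57BL/6 mice aged 10 to 12 weeks, either wild type or carrying a Brsk2 transgene for over-expression of that kinase, from the transgenic line labelled Line20. Doxycycline, the drug used to switch inducible transgenes on, was given in the drinking water of both genotypes over 4 days, to mice aged 8 to 10 weeks. The labels name neither the promoter that drives the transgene nor the cells it acts in, and do not say whether animals were pooled. With 1 library for each group, the differences reported are between 2 libraries and have no replicate check.

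In G1, the phase before DNA synthesis, D-type cyclins bind Cdk4 or Cdk6 and the pair phosphorylates the retinoblastoma protein, which frees E2F transcription factors to switch on S phase genes. Cyclin E with Cdk2 carries the step forward, Ink4 proteins block Cdk4 and Cdk6, and Cip/Kip proteins block Cdk2 complexes. In mouse beta cells, the insulin-secreting cells of islets, cyclin D2 and Cdk4 are known as the main drivers of replication, p27 (encoded by Cdkn1b) as a brake, and the product of Cdkn2a as a brake that builds up with age.

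Reads assigned to genes numbered 20389499 for wild type and 16832312 for the transgenic islets. Brsk2 itself stood at 36.4 and 94.3 CPM, reads scaled to library size. Among marker lists of cell types, all 15 acinar genes were higher in the transgenic library (summed level 11600 against 50900 CPM), 8 of 12 beta cell genes were lower (256000 against 195000 CPM) and 3 of 7 alpha cell genes were higher (19700 against 31300 CPM). Most of the beta cell sum was Ins2 (199000 against 159000 CPM), which was called neither way. The other 3 beta cell genes not called were Iapp, Pdx1 and Nkx6-1. Transgenic over wild type, Ins2 and Iapp stood at 0.800 and 0.799, and Pdx1 and Nkx6-1 at 1.05 and 1.37. Fibroblast and mural cell genes were higher in 6 of 10 cases, at a sum of 108 against 147 CPM. Endothelial genes (289 against 257 CPM, none of 9 called), macrophage genes (104 against 121 CPM, 1 of 9 higher) and B and T cell genes (59.6 against 96.3 CPM, 1 higher and 1 lower of 7 measured) stood at lower sums in both libraries than the beta, alpha or acinar lists. In the B and T cell list the higher gene was Ighm (13.1 against 60.1 CPM), while Cd79a stood at 41.1 against 31.5 CPM. The other lists were delta and gamma cell genes (6830 against 9960 CPM, 1 of 5 higher) and ductal genes (4050 against 2450 CPM, 3 higher and 1 lower of 10). Most of the ductal sum was Krt8 (2770 against 1370 CPM) and Krt18 (877 against 625 CPM). The median log2 ratio of the ductal list was 0.13. No marker was at 0 reads in either library. Markers were called by the rule given in the next paragraph, by which 7.78% of all genes were higher and 5.89% lower. A list with 1 called gene in a direction is thus no result about that cell type. In bulk RNA, fewer cells of a type and less RNA per cell cannot be told apart, and the part of these shifts in the results below was not tested.

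Of the 10 genes, Cdkn1b was higher in the transgenic library, Cdkn2a was lower on few reads, and the other 8 were called neither way. A gene was called where its ratio, transgenic over wild type in CPM, passed 1.5-fold and the exact 95% interval of the ratio, given in brackets and covering counting error only, left out 1. By that rule 7.78% of all genes were higher and 5.89% lower, so 1 of 10 in each direction is near the share among all genes. The median log2 ratio of the 10 was -0.11, against 0.01 over the 17670 genes with reads in both libraries. Below 1 were 6 ratios, 5 of them with an interval that left out 1 (Ccnd1, Ccnd2, Cdk4, Cdkn1a and Cdkn2a). Cdkn1b was the member whose interval lay above 1. Intervals narrow as reads increase, and that of Cdk4 left out 1 at a ratio of 0.928. The share of all genes with such intervals was not taken, so these counts are no result about the 10. None of the 10 was among the 108 genes that the authors' deposited table lists as different, all of which have an absolute log2 fold change of 1.57 or more.

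**Figure D1:**
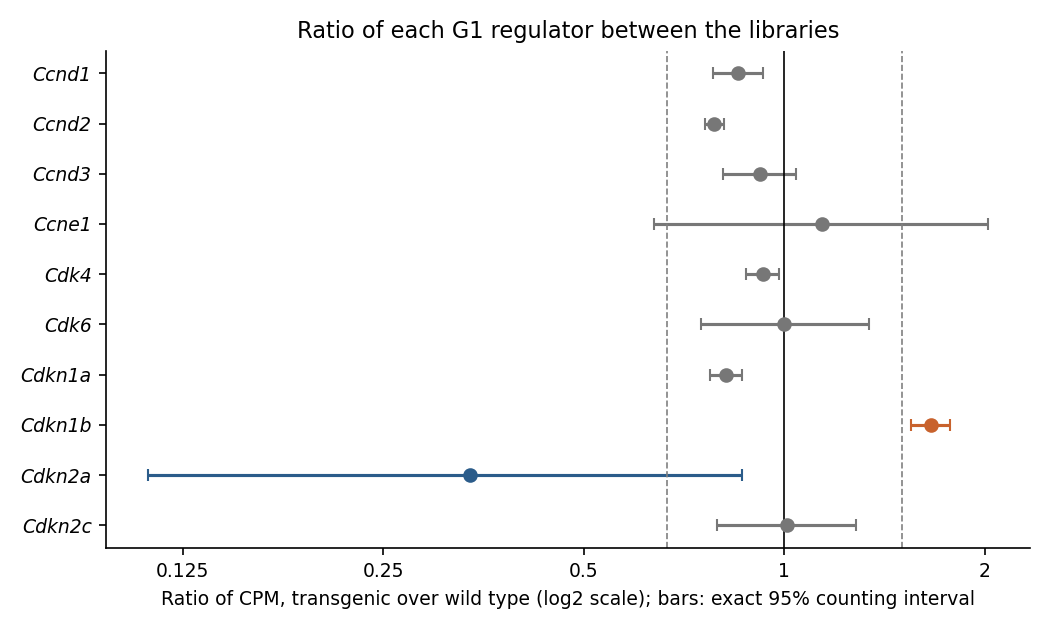
Ratio of CPM, transgenic over wild type, for each of the 10 genes on a log2 axis. Points are ratios of 1 library to 1 library, bars are exact 95% counting intervals, the solid line marks 1 and the dashed lines mark the 1.5-fold rule; only Cdkn1b (1.66) lies past the upper line and only Cdkn2a (0.337) past the lower one.

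The promoters shown here belong to the genes on which the results turn: Cdkn1b and Cdkn1a, inhibitors of one family whose ratios went different ways, Cdkn2a, whose single row in the table covers transcripts from separate starts, and Cdk4, the kinase with the most reads. Each is the 250 bases before a RefSeq start on GRCm38.p6, read 5′ to 3′ on the strand of the gene. Capitals mark matches, on either strand, to the E2F motif TTTNNCGC, the E-box CACGTG or the GC box GGGCGG.
Cdkn1b, chr6:134920151-134920400, plus strand: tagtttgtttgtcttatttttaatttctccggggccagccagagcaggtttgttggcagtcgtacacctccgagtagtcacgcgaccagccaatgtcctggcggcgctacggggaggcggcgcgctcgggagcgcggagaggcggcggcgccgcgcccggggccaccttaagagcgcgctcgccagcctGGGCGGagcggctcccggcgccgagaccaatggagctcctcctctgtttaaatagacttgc
Cdkn1a, downstream start, chr17:29093519-29093768, plus strand: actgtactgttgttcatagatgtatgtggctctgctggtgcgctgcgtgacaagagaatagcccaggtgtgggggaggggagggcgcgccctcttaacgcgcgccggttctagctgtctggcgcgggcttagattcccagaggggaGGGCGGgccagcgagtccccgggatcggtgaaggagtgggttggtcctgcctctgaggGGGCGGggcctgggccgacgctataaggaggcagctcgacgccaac
Cdkn2a, upstream start, chr4:89294620-89294869, minus strand: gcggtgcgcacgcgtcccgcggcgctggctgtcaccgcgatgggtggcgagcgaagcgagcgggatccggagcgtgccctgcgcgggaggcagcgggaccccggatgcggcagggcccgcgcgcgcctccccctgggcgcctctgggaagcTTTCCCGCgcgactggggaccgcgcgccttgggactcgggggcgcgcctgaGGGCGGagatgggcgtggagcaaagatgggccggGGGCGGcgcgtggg
Cdkn2a, downstream start, chr4:89282193-89282442, minus strand: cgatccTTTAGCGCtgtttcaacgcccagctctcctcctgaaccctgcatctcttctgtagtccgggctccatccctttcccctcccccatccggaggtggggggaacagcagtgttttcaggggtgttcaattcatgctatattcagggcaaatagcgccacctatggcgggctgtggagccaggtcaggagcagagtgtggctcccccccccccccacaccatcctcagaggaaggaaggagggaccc
Cdk4, chr10:127063285-127063534, plus strand: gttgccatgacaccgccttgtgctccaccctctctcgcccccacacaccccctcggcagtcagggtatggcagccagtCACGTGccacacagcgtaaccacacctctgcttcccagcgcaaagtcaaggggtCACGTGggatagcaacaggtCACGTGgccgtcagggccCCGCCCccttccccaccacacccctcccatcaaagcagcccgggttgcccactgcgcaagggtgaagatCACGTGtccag
Promoter windows, from 250 bases before to 50 after the start, were given for 8 of the 10 genes, in 12 windows. The E2F motif was in 3 of the 12 windows, of Cdk6 and Cdkn2a, and in 5.17% of all 32851 windows. Both starts of Cdkn2a held it, at position -99 from the upstream start and -244 from the downstream one, which in mouse lead to the p19Arf and the p16Ink4a transcripts. E-boxes, the sites of Myc and related factors, were in 3 of the 12 windows (Cdk4, Cdk6 and Cdkn2c), against 7.15% of all windows, and the Cdk4 window held 4 of them. The GC box was in 9 of the 12 windows, from 7 of the 8 genes, against 35.7% of all windows, and the Cdkn1b window held 1, at position -61 from the start. The full cAMP response element TGACGTCA was in none of the 12, against 1.79% of all windows, and its shorter core TGACG, which the full element contains, was in 5 of the 12 (Ccnd3, Cdk4, Cdk6 and Cdkn1b), against 20.8%. A match is a run of letters and does not show that a factor binds there.

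Cyclin D2 was the D-type cyclin with the most RNA in both libraries and was 0.785 of its wild-type level in the transgenic one. Ccnd2 (ENSMUSG00000000184, chromosome 6, 127125162 to 127152193, minus strand) had 8361 wild-type and 5567 transgenic reads, or 416 CPM [407, 425] and 326 CPM [318, 335]. Its ratio of 0.785 [0.759, 0.813] left out 1 but did not pass 1.5-fold, and 18.3% of all genes had a ratio as low. Ccnd1 (ENSMUSG00000070348, chromosome 7, 144929931 to 144939925, minus strand), the D cyclin best known as a target of growth factor signalling, had 1228 and 887 reads, or 61.0 and 52.0 CPM. Its ratio was 0.852 [0.781, 0.930], again inside the 1.5-fold limits. Ccnd3 (ENSMUSG00000034165, chromosome 17, 47505051 to 47599691, plus strand) had 575 and 448 reads, 28.6 and 26.3 CPM, at 0.919 [0.810, 1.04]. Together the 3 D cyclins summed to 505 CPM in wild type and 405 CPM with the transgene, a ratio of 0.801 [0.777, 0.826].

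The make-up of the D cyclins was close in the 2 libraries. Per kilobase of the gene length in the table, Ccnd2 made up 73.1% of D cyclin RNA in the wild-type and 71.2% in the transgenic library. Ccnd1 made up 21.5% and 22.7%, and Ccnd3 5.39% and 6.14%. Such shares do not depend on how the libraries are scaled to each other. The ratio of Ccnd1 to Ccnd2 was 1.08 times as high in the transgenic library [0.987, 1.19], an interval that held 1, and that of Ccnd3 to Ccnd2 was 1.17 times as high [1.03, 1.33]. Cyclin E1, the partner of Cdk2, was barely sampled: Ccne1 (ENSMUSG00000002068, chromosome 7, 38097984 to 38107534, minus strand) had 27 and 26 reads, 1.34 and 1.52 CPM. At this depth a ratio from 0.637 to 2.02 was possible, so a difference of less than that could not be seen.

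Nearly all RNA of the G1 kinases came from Cdk4. Cdk4 (ENSMUSG00000006728, chromosome 10, 127063534 to 127067920, plus strand) had 2713 wild-type and 2135 transgenic reads, or 135 CPM [130, 140] and 125 CPM [120, 131]. Its ratio was 0.928 [0.877, 0.983]. Cdk6 (ENSMUSG00000040274, chromosome 5, 3341485 to 3531008, plus strand), which can replace Cdk4 in other tissues, had 107 and 91 reads, 5.32 and 5.33 CPM, at 1.00 [0.750, 1.34]. Per kilobase, Cdk4 made up 99.1% of the RNA of the pair in the wild-type library and 99.0% in the transgenic one. The ratio of Cdk6 to Cdk4 differed between the libraries by a factor of 1.08 [0.803, 1.45], an interval that held 1.

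**Figure D2:**
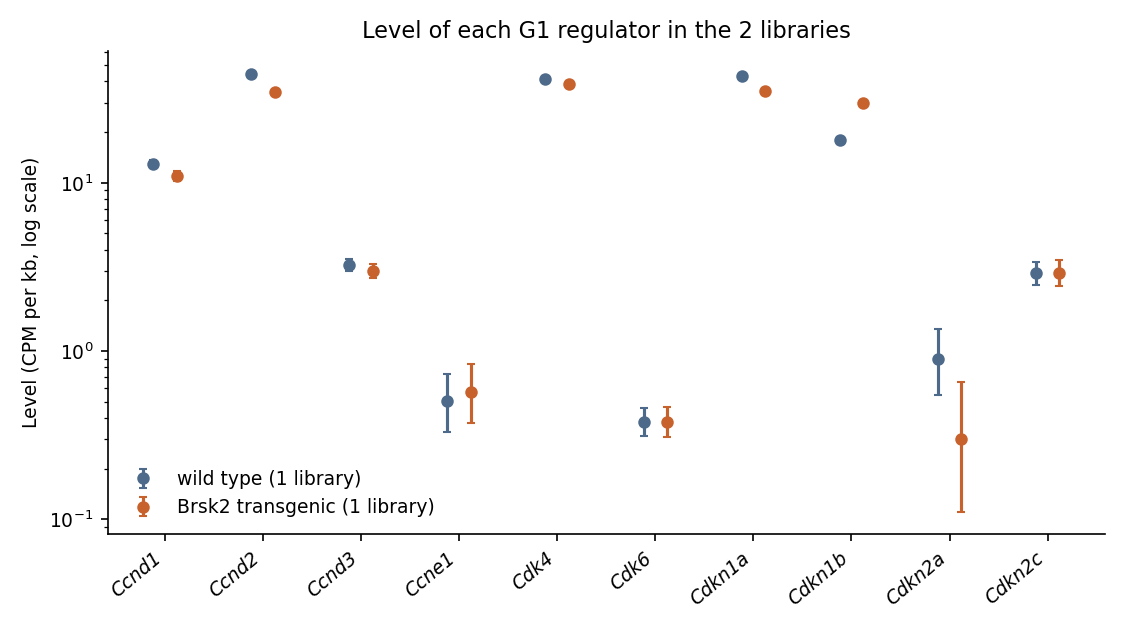
Level of each of the 10 genes in CPM per kilobase of gene length, on a log axis, in the wild-type and the transgenic library (1 each). Bars are exact 95% Poisson intervals for the reads; Ccnd2, Cdkn1a and Cdk4 stand highest in both libraries, and Cdkn1b lies closer to them in the transgenic library (29.7) than in the wild-type one (18.0).

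Among the Cip/Kip inhibitors, Cdkn1b was higher in the transgenic library while Cdkn1a was not. Cdkn1b (ENSMUSG00000003031, chromosome 6, 134920401 to 134925513, plus strand), which encodes p27, had 1644 wild-type and 2309 transgenic reads. That is 81.7 CPM [77.8, 85.8] against 135 CPM [130, 141], and these intervals do not overlap. The ratio was 1.66 [1.55, 1.77], so that the interval as a whole lay past 1.5-fold. A ratio as high was found in 9.98% of all genes, and in 44 of the 1402 genes with at least as many reads, or 3.14%. The marker sums of acinar cells (11600 against 50900 CPM) and beta cells (256000 against 195000 CPM) moved alongside, and their part in this ratio was not tested. Cdkn1a (ENSMUSG00000023067, chromosome 17, 29090976 to 29100727, plus strand), which encodes p21 and is a known target of p53, had 3071 and 2128 reads, 153 and 125 CPM. Its ratio was 0.817 [0.773, 0.864]. Cdkn1c, the imprinted gene for p57, had 62 and 43 reads and a ratio of 0.818 [0.541, 1.23].

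Relative to each other, p27 RNA gained on p21, cyclin D2 and Cdk4. Per kilobase, the level of Cdkn1b was 0.418 of that of Cdkn1a in the wild-type and 0.847 in the transgenic library, 2.03 times as high [1.86, 2.21]. Against Ccnd2 it went from 0.406 to 0.857, a factor of 2.11 [1.96, 2.27], and against Cdk4 from 0.433 to 0.772, a factor of 1.78 [1.64, 1.94]. These factors are free of the scaling between libraries. They come from 9 gene pairs chosen after the values were seen, and the intervals cover counting error only. Within the Cip/Kip family Cdkn1b made up 28.8% of the RNA per kilobase in the wild-type library and 45.0% in the transgenic one, while Cdkn1a made up 68.8% and 53.1%. Which of these 2 genes led in the transgenic library depends on division by length. Without it, Cdkn1b took 51.5% of the family's reads there and Cdkn1a 47.5%, against 34.4% and 64.3% in the wild-type library. The family as a whole moved less, from 237 to 263 CPM, a ratio of 1.11 [1.06, 1.15].

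**Figure D3:**
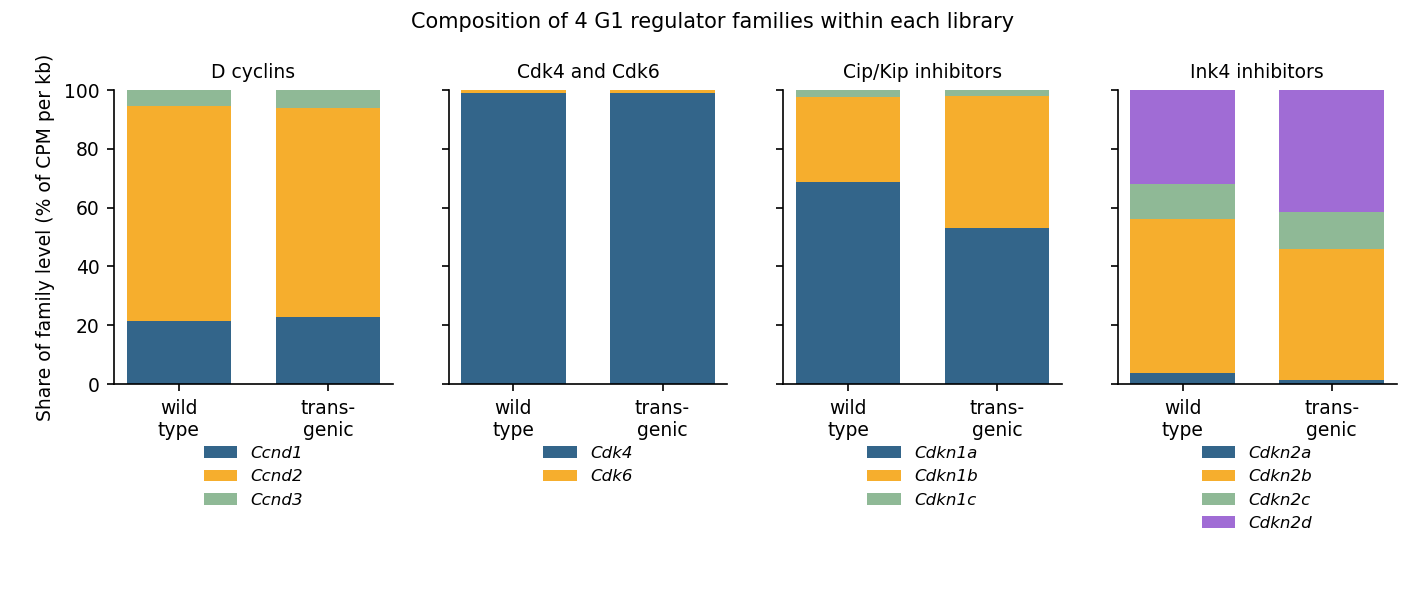
Share of each gene in the level of its family, as a percentage of summed CPM per kilobase, in the wild-type and the transgenic library (1 each). The D cyclin and Cdk4 and Cdk6 bars are nearly alike in both libraries, while Cdkn1b takes 28.8% of the Cip/Kip bar in the wild-type and 45.0% in the transgenic library.

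Of the 2 Ink4 inhibitors among the 10 genes, Cdkn2a was at a low level and Cdkn2c near the middle of all genes. Per kilobase, Cdkn2a lay above 30.5% of all genes in the wild-type and 14.2% in the transgenic library, and Cdkn2c above 50.4% and 50.1%. Cdkn2a (ENSMUSG00000044303, chromosome 4, 89274471 to 89294653, minus strand) had 21 wild-type and 6 transgenic reads, 1.04 CPM [0.646, 1.60] and 0.352 CPM [0.129, 0.766]. The 2 levels thus have overlapping intervals, while the ratio of 0.337 [0.111, 0.863] was called lower by the rule. Of 4225 genes with 10 to 50 reads, 5.51% had a ratio as low. The row does not separate p16Ink4a, which blocks Cdk4 and Cdk6, from p19Arf, which acts through p53. Cdkn2c (ENSMUSG00000028551, chromosome 4, 109660876 to 109667189, minus strand), which encodes p18Ink4c, had 157 and 134 reads, 7.80 and 7.86 CPM, at 1.01 [0.793, 1.28]. Most Ink4 RNA came from relatives outside the 10 genes. Cdkn2b, the p15 gene, stood at 17.6 and 14.5 CPM with a ratio of 0.824 [0.698, 0.972]. Cdkn2d, the p19Ink4d gene, stood at 12.1 and 15.2 CPM with a ratio of 1.26 [1.06, 1.51]. The 4 Ink4 genes together were at 38.6 and 38.0 CPM, a ratio of 0.985 [0.886, 1.09].

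Ordered by level per kilobase, Ccnd2 (44.2), Cdkn1a (43.0) and Cdk4 (41.5 CPM per kb) led in the wild-type library, each with an interval that overlapped the next. Cdkn1b at 18.0 and Ccnd1 at 13.0 followed, apart from their neighbours. Ccnd3 (3.26) and Cdkn2c (2.91) overlapped each other, and Cdkn2a (0.891), Ccne1 (0.504) and Cdk6 (0.380 CPM per kb) formed the low end. There Ccne1 overlapped both others, while Cdkn2a [0.551, 1.36] and Cdk6 [0.312, 0.459] lay apart. In the transgenic library Cdk4 came first at 38.5, apart from Cdkn1a at 35.1 and Ccnd2 at 34.7, which overlapped each other. Cdkn1b followed at 29.7 CPM per kb, above 92.9% of all genes, compared with 86.7% in the wild-type library. Cdkn2a was last at 0.300, but its interval overlapped that of Cdk6 at 0.381 CPM per kb. Levels per kilobase rest on 1 gene length for each gene in the table, whatever the transcripts the islets make.

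**Figure D4:**
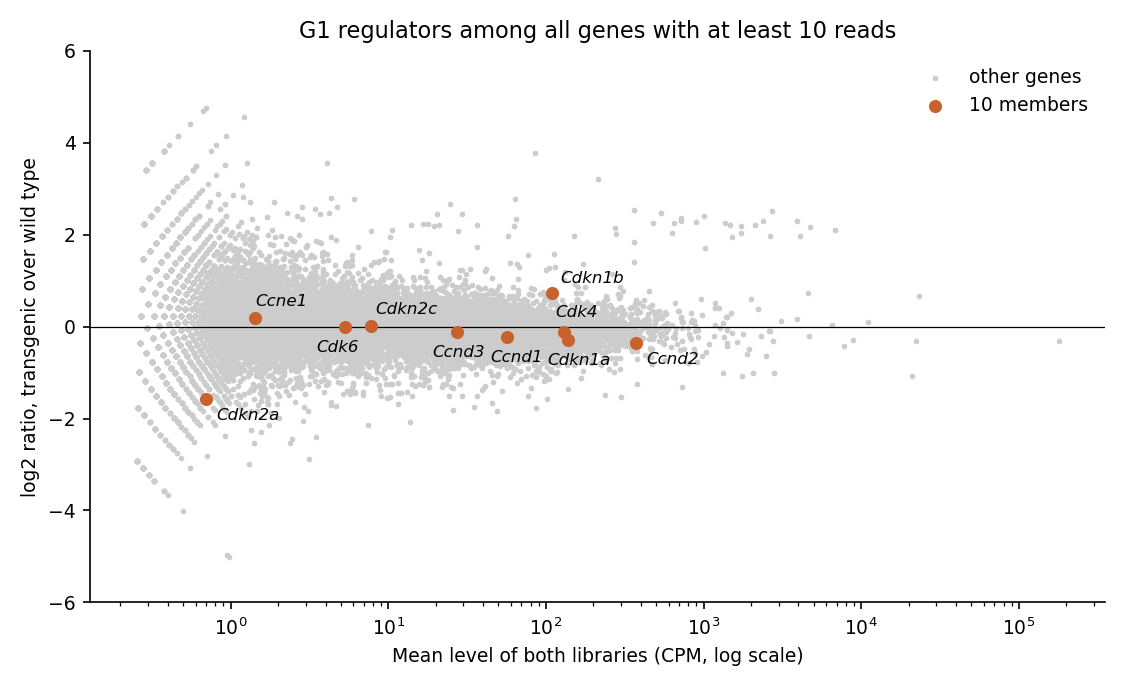
Log2 ratio, transgenic over wild type, against the mean level of both libraries in CPM on a log axis, for the 17670 genes with reads in both libraries. Grey points are other genes and orange points the 10 genes described here; Cdkn1b (0.73) lies toward the upper edge of genes at its level, Cdkn2a (-1.57) lies among genes with few reads, and the other 8 lie between -0.35 and 0.18.

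Some reads of these genes may be shared with neighbours, since it is not given whether the libraries kept strand. On the opposite strand, Cdk4 overlaps Tspan31 (908 wild-type and 598 transgenic reads), Ccnd1 overlaps Oraov1 (470 and 503 reads) and Ccnd3 overlaps Bysl (257 and 153 reads). The antisense gene 9330179D12Rik, with 13 and 8 reads, overlaps Ccnd2. No other gene of the table overlaps Cdkn1b, Cdkn2a, Cdkn2c or Ccne1.

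Over 6 lists of the wider pathway with 123 measured genes, 10 were higher, 4 lower and 109 neither. Among all genes 7.78% were higher and 5.89% lower, so these counts are no result about the pathway. The same holds for the count of each list below. The median log2 ratio of each list lay between -0.11 and 0.11, against 0.01 over all genes. None of these genes was in the authors' deposited table either.

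Of 17 direct partners of the G1 machinery, 1 was higher and none lower, against 7.78% and 5.89% of all genes. The count of higher partners was 3 with plain library totals. It was 2 with TMM leaving out hormones and acinar markers or with centring by GC content and length. Cdk2, the kinase that works with cyclin E, was higher at 1.59 [1.11, 2.31], from 54 and 73 reads. Cyclin E2 (Ccne2) had 130 and 89 reads and a ratio of 0.808 [0.610, 1.07]. The ubiquitin ligase that marks p27 for destruction includes Cul1, Skp1a, Skp2 and Cks1b. Cul1 had 2222 and 1861 reads and a ratio of 0.988 [0.928, 1.05]. Skp1a, the gene of this list with the highest level per kilobase, was at 54.0 and 67.6 CPM per kb with a ratio of 1.25 [1.18, 1.33]. Skp2 had 36 and 48 reads at 1.57, with an interval from 1.000 to 2.49, and Cks1b a ratio of 1.35 [1.03, 1.76]. Neither was called. Ccna1 had 0 reads in both libraries.

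In the retinoblastoma and E2F list 1 of 19 genes was higher and none lower, against 7.78% and 5.89% of all genes. With plain library totals or with centring by GC content and length, 2 genes of the list were higher. Lin9, a subunit of the complex that controls cell cycle genes together with retinoblastoma relatives, was higher at 1.63 [1.11, 2.39], from 50 and 69 reads. The retinoblastoma gene Rb1 had a ratio of 1.13 [0.997, 1.28]. E2f4, an E2F family member and the gene of this list with the highest level per kilobase, stood at 19.0 and 16.2 CPM per kb, a ratio of 0.853 [0.772, 0.942].

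Among 20 S phase genes, 2 were higher and none lower, against 7.78% and 5.89% of all genes. The 2 higher S phase genes were subunits of the replicative helicase, Mcm6 at 1.51 [1.31, 1.74] and Mcm7 at 1.51 [1.25, 1.83]. Pcna, the sliding clamp of DNA polymerase and the most abundant member per kilobase, had 1553 and 1278 reads and a ratio of 0.971 [0.901, 1.05]. Of 21 genes of G2 and mitosis, 2 were higher and 2 lower, again near the shares among all genes. Each of these had fewer than 100 reads over both libraries and is named here after its value was seen. Bub1b (18 and 38 reads) and Aurkb (4 and 14 reads) were higher, while Cenpa (46 and 21 reads) and Cenpe (26 and 9 reads) were lower. The proliferation marker Mki67 had 101 and 85 reads and a ratio of 0.993 [0.735, 1.34], and Kif11, the mitotic motor gene with the highest level per kilobase in this list, had a ratio of 0.925 [0.713, 1.20]. All 21 genes together summed to 43.5 CPM in wild type and 40.3 CPM with the transgene, less than Ccnd1 alone.

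The p53 list, to which Cdkn1a belongs by function, had 2 of 20 genes higher and 2 lower. Among all genes 7.78% were higher and 5.89% lower, and the median log2 ratio of the list was -0.05. Gadd45a, a stress-induced growth arrest gene, was lower at 0.567 [0.500, 0.641], from 791 and 380 reads, and the nuclease gene Aen was lower at 0.637 [0.566, 0.715]. Bbc3, which encodes the death-promoting protein Puma, was higher at 1.55 [1.34, 1.79], and Sesn1, a stress-induced regulator of mTOR signalling, was higher at 1.54 [1.42, 1.67]. The most abundant gene of the list per kilobase was the antiproliferative Btg2, at 38.9 and 33.2 CPM per kb and a ratio of 0.854 [0.799, 0.912]. Trp53 itself had a ratio of 1.23 [1.12, 1.35] and was not called.

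Of 26 genes known to control the G1 regulators, 2 were higher and none lower, against 7.78% and 5.89% of all genes. That count is no result about these regulators. Myc, a driver of proliferation, was higher at 1.62 [1.33, 1.99], from 170 and 234 reads, and so was Foxa2, a transcription factor of endocrine and gut cells, at 1.55 [1.42, 1.69]. The homeobox factor Nkx6-1 was the most abundant of the list per kilobase, at a ratio of 1.37 [1.31, 1.43]. Men1, whose product menin holds the Cdkn1b and Cdkn2c genes active in islets, had a ratio of 0.975 [0.885, 1.07], and its partner Kmt2a 0.785 [0.749, 0.823]. Foxo1 and Foxo3, whose products can activate Cdkn1b, stood at 0.864 [0.782, 0.953] and 0.860 [0.786, 0.941]. Of the Polycomb genes whose products silence Cdkn2a, Bmi1 was at 1.02 [0.938, 1.11] and Ezh2, with 111 and 66 reads, at 0.701 [0.509, 0.960]. From the same group, Cbx7 was at 1.15 [1.07, 1.23] and Cbx8 at 0.742 [0.584, 0.940]. The prolactin receptor Prlr, which raises beta cell replication in pregnancy, was at 1.01 [0.946, 1.07]. Apart from Myc and Foxa2, none of these named regulators passed 1.5-fold.

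**Figure D5:**
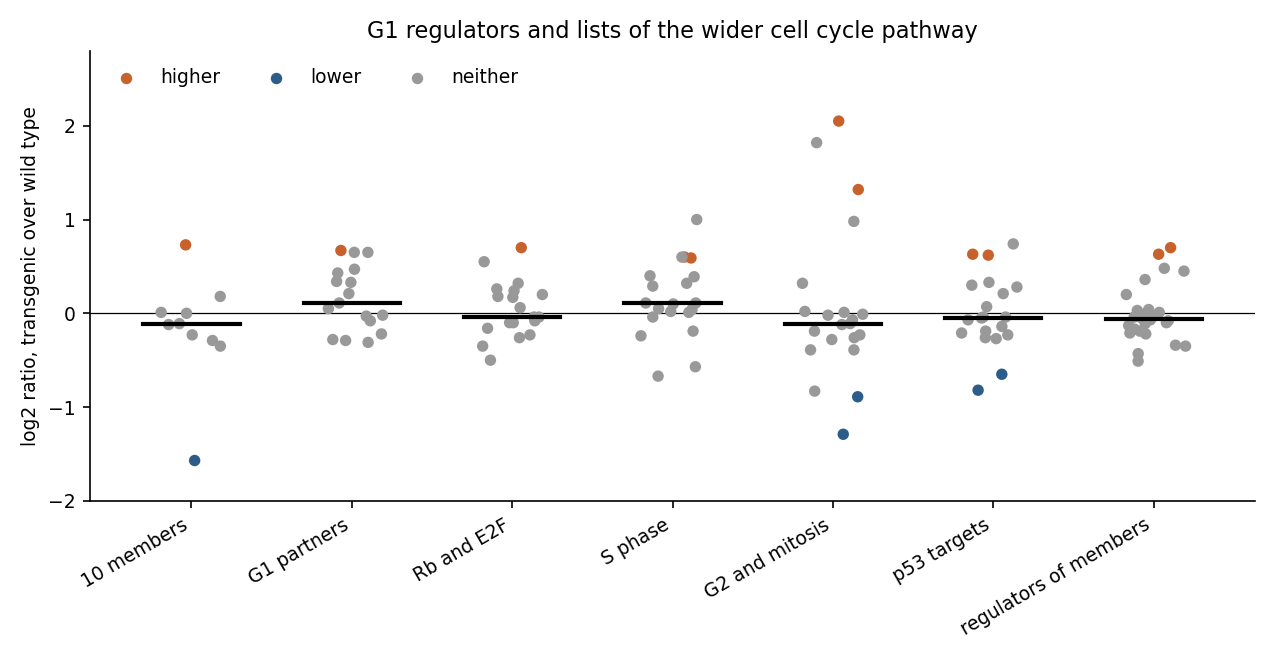
Log2 ratio, transgenic over wild type, of the 10 genes and of the measured genes in 6 lists of the wider pathway. Each point is a gene, coloured by whether it was called higher, lower or neither, and black bars are medians, which lie between -0.11 and 0.11; in the list of G2 and mitosis, the called genes have few reads.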

How the data were processed

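Islet RNA was extracted with Trizol and made into TruSeq libraries, per the labels' protocols. The authors deposited raw read counts per gene, and a table of genes listed as different with log2 fold changes. The submitters' processing notes name DESeq2 1.10.1. No aligner, counter or genome build is named in the sources used here. Start and end of all 10 genes matched GENCODE M21 on GRCm38.

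Libraries were scaled by TMM (edgeR 4.0.16, R 4.3.3; factors 0.987 and 1.01); 1 read equals 0.0497 CPM for wild type and 0.0586 CPM with the transgene. No test between groups was made. Ratios have exact Clopper-Pearson intervals and levels exact Poisson intervals (SciPy 1.17.1); gene pairs have exact conditional odds ratio intervals. Intervals cover counting error only. Reads carry no molecular identifiers here, so copies of the same molecule count as separate reads and intervals may be too narrow even for that. Ratios, their intervals and calls were tested on simulated counts that held counting error only.

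Members and lists were chosen with earlier results of these data known. Named in each list were called genes with at least 100 reads, up to 4, and the most abundant per kilobase; other genes were chosen after their values were seen. Alternatives were DESeq2 1.42.0 size factors, plain library totals, TMM leaving out hormones and acinar markers, centring by GC content and length, other read minimums and fold rules, protein-coding genes only, shares without length, and a shorter promoter window. Promoter sequences are from RefSeq (GRCm38.p6).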

Additional observations from a re-analysis of the deposited data

How the results depend on the processing

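Under DESeq2 size factors, plain library totals, TMM leaving out hormones and acinar markers, and centring by GC content and length, all 10 genes kept their call, with Cdkn1b between 1.64 and 1.70 and Cdkn2a between 0.328 and 0.346. With a 2-fold rule, 0 members, 2 list genes and 755 of all genes were higher, and 1 member (Cdkn2a), 1 list gene and 448 of all genes lower. Where the nearer interval bound had to pass 1.5-fold, Cdkn1b stayed higher, 0 members were lower, 0 list genes were higher and 1 lower, and 438 and 361 of all genes were called, against 1377 and 1043 by the main rule. With at least 50 reads, 0 members were lower, because Cdkn2a has fewer. Without division by length, Ccnd2 took 82.3% and 80.7% of D cyclin reads and Cdkn1b 34.4% and 51.5% of Cip/Kip reads in the wild-type and transgenic library, as gene lengths differ. With only 150 bases before the start, 1 of the 2 genes held the E2F motif, since the window is shorter. No paired analysis was possible because each group has 1 library. Depth limits Ccne1 and Cdkn2a most, with 53 and 27 reads over both libraries.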
